A study of Mus musculus with 9 samples.

Results

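The data describe 31 genes of fatty acid oxidation and of the peroxisome proliferator-activated receptors (PPARs) in 9 RNA-sequencing libraries of mouse intestinal organoids and tumoroids. The members were taken by their gene symbols alone, and all 31 were found among the 50600 genes in the deposited tables. Of the libraries, 6 came from wild-type (WT) organoids, which are cultures of normal small intestinal epithelium, of strain C57BL/6 per the labels. These organoids were kept for 24 hr in a mixture of 50% conditioned medium (cM) and organoid medium of double strength, which held EGF, Noggin and R-spondin 1. Conditioned medium came from tumoroids (T-cM) or from WT organoids (WT-cM). The other 3 libraries came from untreated tumoroids, cultures of intestinal tumours that arose in Apc1638N/+ mice, whose strain is labelled MIX. Each of the 3 groups held 3 numbered replicates, and the labels tie the organoids to 3 mice and the tumoroids to another 3. Titles and treatment fields name opposite media for all 6 organoid libraries. The organoid groups carry the names of their titles here, T-cM-titled or WT-cM-titled, and if the treatment field is right instead, each direction between them turns round. Tumoroids differed from organoids in genotype, in labelled strain, in medium and, per the methods, in the age of the mice, and these differences cannot be told apart. The methods describe tumoroid culture without R-spondin, while the labels list it, and they give a mixed background for every mouse, unlike the strain label of the organoids.

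Fatty acid oxidation shortens fatty acids by repeated cycles that remove an acetyl unit at a time. Fatty acids are taken up and joined to coenzyme A, enter mitochondria through the carnitine shuttle, and are then cut by acyl-CoA dehydrogenases, hydratases, dehydrogenases and thiolases, while very long chains are shortened first in peroxisomes. PPARs are nuclear receptors that fatty acids activate and that switch on many of these genes, and in the small intestine the pathway is mainly active in absorptive enterocytes.

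The libraries held from 16541635 to 25170966 counted reads. Expression of a gene across libraries is given as CPM (counts scaled to the library total) after TMM normalisation, and a floor of 3 counts came to between 0.103 and 0.204 CPM by library, a limit that covers counting error only. Levels of different genes are compared only in TPM (transcripts scaled to a fixed total), which take gene length into account. A gene passed the test at an adjusted p under 0.05 in edgeR's quasi-likelihood test (Benjamini-Hochberg) over the 16208 genes that reached 1 TPM in at least 1 library, and "rose" and "fell" are used only of genes that passed. All 31 members were tested, and 30 of them reached 1 TPM in all 9 libraries, the exception being Pdk4. Epithelial markers (5 genes) summed to between 9189 and 13568 TPM in organoids and to between 11187 and 13264 TPM in tumoroids, where Krt18 rose and Krt8 and Krt19 fell. Of 7 mesenchymal markers 6 stayed under 1 TPM in every library, as did 4 of 5 immune, 2 of 4 endothelial and 4 of 5 adipocyte markers, with Adipoq and Lep at 0. Of these markers 2 rose and 1 fell in tumoroids. Cidec, a lipid droplet protein taken as an adipocyte marker, went from 27.6 to 65.8 TPM in organoids to 9.91, 26.0 and 4.31 TPM in tumoroids. The macrophage receptor Csf1r was at 1.82, 15.6 and 3.30 TPM in tumoroids 1, 2 and 3 and at 0.0900 to 1.71 TPM in organoids, and the endothelial cadherin Cdh5 was at 0.0400, 0.0300 and 1.58 TPM in tumoroids and at 0 in organoids. Immune markers thus summed to the highest level in tumoroid 2, at 15.8 TPM against at most 1.83 TPM in organoids. The organoids of replicate 1 and tumoroid 2 also stood apart from the rest in markers of epithelial cell types, as given beside the results.

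Promoters of 4 members are shown because PPARs bind DNA at repeats of the letters AGGTCA, which these members hold once, and because their expression fell by different amounts in tumoroids. They are Cpt1a, which makes the acylcarnitines that enter mitochondria, Acadvl and Acadm, dehydrogenases of very long and medium chains, and Plin2, a coat protein of lipid droplets. Each sequence gives 230 bases, which end 21 bases before the transcription start, on the strand of the gene, with AGGTCA, or TGACCT where it lies on the other strand, in capitals. They are from RefSeq on build GRCm38.p6, at chr19:3323051-3323280 (plus strand), chr11:70015449-70015678 (minus strand), chr3:153944664-153944893 (minus strand) and chr4:86670080-86670309 (minus strand). In the Gencode annotation those of Acadvl, Acadm and Plin2 lie outside the gene, before its start. That of Cpt1a lies within the annotated gene, after its most upstream exon and before a later start.
Cpt1a: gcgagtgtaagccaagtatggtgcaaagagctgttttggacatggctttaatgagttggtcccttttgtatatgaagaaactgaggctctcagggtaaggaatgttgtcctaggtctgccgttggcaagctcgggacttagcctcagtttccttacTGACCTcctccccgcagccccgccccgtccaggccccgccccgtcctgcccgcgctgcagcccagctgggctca
Acadvl: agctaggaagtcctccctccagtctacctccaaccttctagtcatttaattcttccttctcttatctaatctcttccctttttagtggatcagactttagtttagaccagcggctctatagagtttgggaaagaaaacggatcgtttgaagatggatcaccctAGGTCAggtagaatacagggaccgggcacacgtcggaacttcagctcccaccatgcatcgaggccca
Acadm: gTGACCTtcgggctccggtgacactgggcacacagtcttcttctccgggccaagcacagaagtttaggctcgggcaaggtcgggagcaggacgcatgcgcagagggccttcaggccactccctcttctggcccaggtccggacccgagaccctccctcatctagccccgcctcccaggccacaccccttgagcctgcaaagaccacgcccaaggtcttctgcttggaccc
Plin2: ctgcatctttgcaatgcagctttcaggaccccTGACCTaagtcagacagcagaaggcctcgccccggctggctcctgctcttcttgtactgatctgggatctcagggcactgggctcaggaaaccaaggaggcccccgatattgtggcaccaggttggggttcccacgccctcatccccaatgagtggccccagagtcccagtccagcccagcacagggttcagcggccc
The 6 letters begin 94 bases before the start in Cpt1a, 87 in Acadvl, 249 in Acadm and 218 in Plin2. The log2 fold changes of these genes in tumoroids were −1.20, −1.68, −0.68 and −0.59 in the same order. Creb3l3, Slc27a2 and Pparg hold the letters as well and are not shown. In windows from 250 bases before to 50 bases after the start, they were found on either strand in 8 of the 35 promoters listed for 29 members (22.9%), and in 16.3% of 32851 mouse promoters. The full repeat, AGGTCA followed by any 1 base and AGGTCA again, was in 0 of the 35 and in 0.0396% of all promoters, and a looser form with any base in place of each T was in 0 of the 35 and in 0.381%. A match describes the letters only. Acaa2 and Angptl4 are without a promoter here.

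Most of the pathway was expressed at a lower level in tumoroids than in organoids. Of the 31 members, 26 fell (83.9%), against 20.8% of all tested genes, and 1 rose (Acox2), against 29.6%, where 50.4% of all tested genes passed in either direction. The median log2 fold change over the members was −1.42, while the median over all tested genes was 0.16. In 24 members every tumoroid library lay below every organoid library in CPM, as it did for 20.2% of all tested genes. In TPM the groups overlapped for Acsl3, Acadm, Hadhb and Eci2 among these 24. In 21 members the fall was more than 2-fold (12.1% of all tested genes). In summed TPM the members held between 6035 and 7597 in organoids and between 3137 and 3410 in tumoroids. TPM were not rescaled by TMM, whose factors were 1.19 to 1.21 in tumoroids and 0.89 to 0.96 in organoids, so TPM understate the falls beside CPM. In bulk RNA fewer cells of a type and less RNA per cell cannot be told apart.

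**Figure D1:**
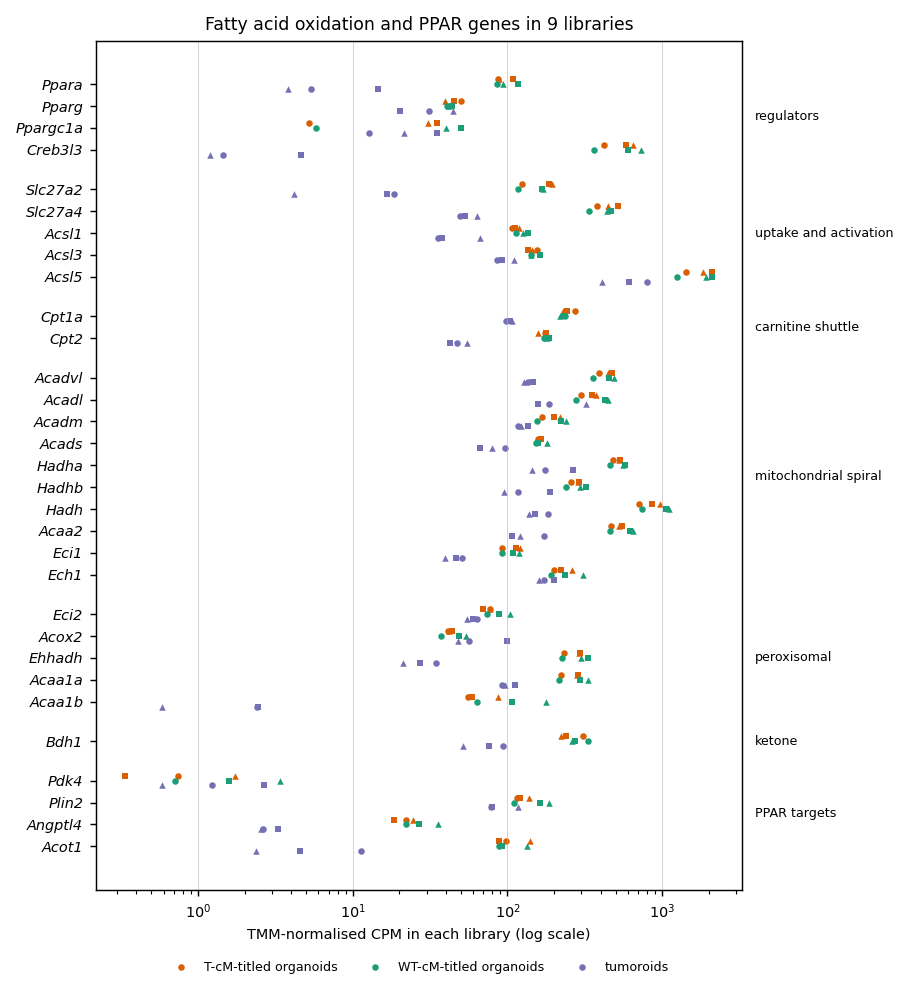
TMM-normalised CPM of the 31 members (rows, grouped by role) in each of the 9 libraries, on a log scale, with a circle, a square and a triangle for replicates 1, 2 and 3. In 24 rows all tumoroid points lie to the left of all organoid points; levels should be compared within a row only, since CPM do not allow for gene length.

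Markers of cell types within the epithelium differed in the same comparison. All 10 enterocyte markers fell in tumoroids, with a median log2 fold change of −6.88, and their summed level was 22523 to 39977 TPM in organoids and 525 to 1340 TPM in tumoroids. Of 5 crypt stem cell markers 4 rose. Of 5 goblet cell markers 4 fell, with a median of −2.64, and their summed level was 1646, 361 and 2512 TPM in tumoroids 1, 2 and 3 against 3761 to 5130 TPM in organoids. Of 5 Paneth cell markers 3 fell and Mmp7 rose, with a median of −2.96, and they summed to 8199, 882 and 5595 TPM in tumoroids against 15485 to 19887 TPM in organoids. Tumoroid 2 was thus far below the other tumoroids in both secretory cell types, while it held the highest sum of enterocyte markers among them. Of 6 genes of mitochondria outside the pathway 3 fell (Cs, Vdac1 and Atp5b), with a median of −0.64 over the 6. Genes of the mitochondrial genome took 0.701%, 2.17% and 0.817% of the counts in tumoroids 1, 2 and 3 and 1.33% to 1.80% in organoids, so that tumoroid 2 lay above and the others below the organoids. Their part in the differences of the members was not tested.

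Among the regulators, 2 fell and 2 did not pass. Ppara (chr15:85734983-85802819), the PPAR that drives oxidation genes, was at 85.6, 90.5 and 116 CPM as the lowest, median and highest of the 6 organoid libraries. It was at 5.35, 14.5 and 3.81 CPM in tumoroids 1, 2 and 3. The tumoroids lay far below the organoids, with tumoroid 2 the highest of them (log2 fold change −3.61, standard error 0.42, edgeR adjusted p = 9.1e-05). Creb3l3 (chr10:81084324-81098874), a membrane-bound factor that works together with PPARα in liver, showed the greatest fall of the 31. Its organoid libraries ranged from 363 to 730 CPM with a median of 594, and its tumoroids were at 1.45, 4.65 and 1.20 CPM. The fall was 228-fold (log2 fold change −7.83, standard error 0.59, edgeR adjusted p = 7.5e-06). Pparg, the PPAR better known from fat cells, was at 31, 20.2 and 44.5 CPM in tumoroids and at 39.5 to 49.8 CPM in organoids. The groups overlapped, and the difference did not pass (log2 −0.44, edgeR adjusted p = 0.12), though it did without tumoroid 3 (log2 −0.78, adjusted p = 0.0075). Ppargc1a, a coactivator of mitochondrial genes, differed more between replicate numbers than between the groups. It was at 5.18 and 5.77 CPM in the organoids of replicate 1 and at 30.5 to 49.9 CPM in the other 4 organoid libraries, with tumoroids at 12.7, 35.0 and 21.4 CPM. The difference between tumoroids and organoids did not pass (log2 −0.25, standard error 0.69, edgeR adjusted p = 0.79), and its sign was not stable between methods.

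Fatty acid uptake and activation genes fell in tumoroids in all 5 cases. In CPM the libraries did not overlap for any of the 5, as for 20.2% of all tested genes in that direction. In TPM Acsl3 did overlap, at 64.77, 79.03 and 90.75 TPM in tumoroids and 74.87 to 92.39 TPM in organoids. Slc27a2 and Slc27a4 encode proteins that bring in fatty acids and join them to coenzyme A. Slc27a2 was at 117 to 195 CPM in organoids and at 18.5, 16.6 and 4.16 CPM in tumoroids, with tumoroid 3 lowest (log2 −3.61, standard error 0.47, edgeR adjusted p = 0.00017). Slc27a4 was at 337 to 522 CPM in organoids and at 49.4, 53.1 and 63.4 CPM in tumoroids, so that the 3 tumoroids lay close together (log2 −2.97, standard error 0.19, edgeR adjusted p = 3.9e-06). The long-chain acyl-CoA synthetases changed less. Acsl5, the member with the highest level in organoids on the TPM scale (a median of 1386 TPM), went from 1253 to 2114 CPM in organoids to 803, 612 and 411 CPM in tumoroids (log2 −1.54). It remained the highest member in tumoroids 1 and 2, at 835 and 724 TPM, while in tumoroid 3 Acadl was higher (578 against 467 TPM). Acsl1 fell by 1.35 on the log2 scale and Acsl3 by 0.61, the latter not passing with the deposited TPM (log2 −0.10, adjusted p = 0.56 with limma).

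Both members of the carnitine shuttle fell. Cpt1a, the step that limits entry of long chains into mitochondria, was at 218 to 273 CPM in organoids. In tumoroids it was at 98.5, 105 and 107 CPM, which are close together (log2 −1.20, standard error 0.12, edgeR adjusted p = 3.1e-05). Cpt2, which rebuilds acyl-CoA inside mitochondria, was at 157 to 186 CPM in organoids and at 47.5, 42.8 and 54.4 CPM in tumoroids (log2 −1.86, standard error 0.12, edgeR adjusted p = 4.4e-06).

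In the mitochondrial cycle 9 of 10 members fell, by amounts that differed from step to step. Acyl-CoA dehydrogenases, which open each cycle for chains of decreasing length, fell by 1.68 for Acadvl (very long chains), 0.71 for Acadl (long), 0.68 for Acadm (medium) and 1.01 for Acads (short) on the log2 scale. Acadvl was at 358 to 487 CPM in organoids and at 135, 146 and 127 CPM in tumoroids, without overlap. Acadl was at 279 to 447 CPM in organoids and at 184, 157 and 324 CPM in tumoroids, where tumoroid 3 lay within the organoid range (edgeR adjusted p = 0.040). The fall of Acadl was not firm, since it passed in 10 of 19 alternatives. It did not pass without tumoroid 1 (log2 −0.59, adjusted p = 0.13) or tumoroid 2 (log2 −0.53, adjusted p = 0.13), nor without organoid pair 2 (log2 −0.66, adjusted p = 0.14) or 3 (log2 −0.61, adjusted p = 0.14). Hadh, which oxidises the hydroxyacyl intermediate of short and medium chains, fell most in this group. Its organoid libraries held 713 to 1101 CPM, with a median of 919, and its tumoroids 183, 151 and 138 CPM (log2 −2.52, standard error 0.21, edgeR adjusted p = 1.2e-05). Acaa2, a thiolase that ends the cycle, went from 460 to 646 CPM in organoids to 173, 107 and 120 CPM in tumoroids (log2 −2.02). Hadha and Hadhb, neighbours on chromosome 5 (chr5:30118304-30155162 and chr5:30155248-30184593) that encode the subunits of the trifunctional protein, fell by 1.42 and 1.07. Both were highest in tumoroid 2, with 174, 266 and 145 CPM for Hadha and 117, 189 and 95.2 CPM for Hadhb in tumoroids 1, 2 and 3. The values of Hadhb are uncertain, since 52.8% of its 100-base stretches also occur in other genes, the pseudogene Gm13910 first among them. Eci1, an isomerase for unsaturated chains, fell by 1.24, and Ech1, another such isomerase, was at 173, 199 and 160 CPM against 193 to 306 CPM and did not pass (log2 −0.41, edgeR adjusted p = 0.069).

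Peroxisomal members moved in both directions, with 4 down and 1 up. Ehhadh, the bifunctional enzyme of peroxisomes and a well known PPARα target, was at 225 to 334 CPM in organoids and at 34.4, 27.4 and 21.1 CPM in tumoroids (log2 −3.34, standard error 0.22, edgeR adjusted p = 4.3e-06). Acaa1a and Acaa1b are nearby copies of the peroxisomal thiolase gene on chromosome 9. Acaa1a fell by 1.45 on the log2 scale, from 215 to 332 CPM to 92.2, 111 and 96.1 CPM. Acaa1b fell by 5.61, from 55.8 to 177 CPM to 2.40, 2.45 and 0.584 CPM. The copies share 21.6% and 22.6% of their 100-base stretches, so how reads were split between them is uncertain. Eci2, an isomerase found in peroxisomes too, fell by 0.45 (edgeR adjusted p = 0.016), which passed in 12 of 19 alternatives and whose sign turned with the deposited TPM (log2 0.08). It did not pass without tumoroid 3 (log2 −0.41, adjusted p = 0.050), organoid pair 2 (log2 −0.48, adjusted p = 0.057) or organoid pair 3 (log2 −0.37, adjusted p = 0.067). Acox2, an oxidase of branched chains and bile acid precursors, was at 36.9 to 54.2 CPM in organoids and at 56.7, 99.0 and 48.2 CPM in tumoroids. Its rise (log2 0.61, standard error 0.22, edgeR adjusted p = 0.039) passed in 9 of 19 alternatives. Without tumoroid 2, the library with the most Csf1r and the lowest Paneth and goblet cell markers of the tumoroids, it was 0.23 with an adjusted p of 0.29. Without organoid pair 1, 2 or 3 it was 0.48, 0.64 or 0.68 and did not pass either (adjusted p = 0.15, 0.11 and 0.077).

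Bdh1, which interconverts the ketone bodies, fell from 221 to 330 CPM in organoids to 93.7, 76.0 and 51.8 CPM in tumoroids (log2 −1.88, standard error 0.22, edgeR adjusted p = 8.6e-05). Of the 4 further PPAR targets 3 fell. Acot1, a thioesterase that frees fatty acids from coenzyme A, went from 88.2 to 139 CPM to 11.2, 4.54 and 2.37 CPM, with tumoroid 1 the highest (log2 −4.15, standard error 0.49, edgeR adjusted p = 9.7e-05). Of its 100-base stretches 21.9% also occur in Acot2, Acot3 or Acot5, so its counts are uncertain. Angptl4 (chr17:33773750-33781830), a secreted inhibitor of lipoprotein lipase, went from 18.4 to 35.8 CPM to 2.63, 3.27 and 2.54 CPM, and its 3 tumoroids nearly coincided (log2 −3.14, standard error 0.23, edgeR adjusted p = 6.6e-06). Plin2, a coat protein of lipid droplets, was at 110 to 185 CPM in organoids and at 77.8, 79.5 and 117 CPM in tumoroids, where tumoroid 3 overlapped the organoids (log2 −0.59, edgeR adjusted p = 0.032). The fall of Plin2 passed in 10 of 19 alternatives. It did not pass without tumoroid 1 (log2 −0.49, adjusted p = 0.11) or tumoroid 2 (log2 −0.51, adjusted p = 0.10), nor without organoid pair 2 (log2 −0.58, adjusted p = 0.11) or 3 (log2 −0.47, adjusted p = 0.12). Pdk4, a kinase that turns off the use of pyruvate, was barely expressed in any library, at 0.339 to 3.41 CPM in organoids and at 1.22, 2.68 and 0.584 CPM in tumoroids, and did not pass (log2 0.15, edgeR adjusted p = 0.87).

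**Figure D2:**
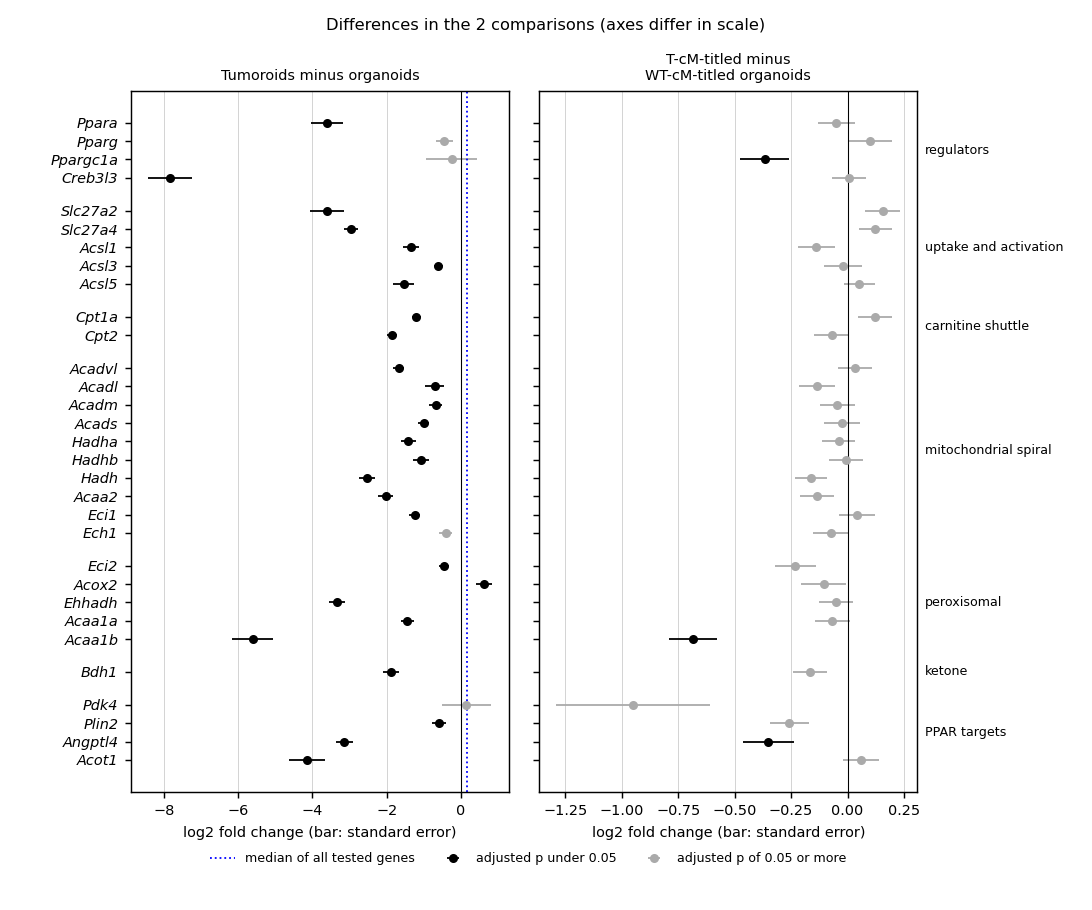
Log2 fold changes of the 31 members with their standard errors, for tumoroids minus the mean of both organoid groups (left, 9 libraries) and for T-cM-titled minus WT-cM-titled organoids (right, 6 libraries); black points passed the test and grey points did not. On the left 26 black points lie below 0 and 1 above, and on the right only 3 points are black; the axes differ in scale.

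Tumoroids did not vary alike over the members. Among the 26 members that fell, the lowest of the 3 tumoroids was tumoroid 3 in 15, tumoroid 1 in 7 and tumoroid 2 in 4, while the highest was tumoroid 1 in 10, tumoroid 2 in 9 and tumoroid 3 in 7. The same tally was not made over all genes that fell, so these counts cannot be called particular to the members. The falls of 21 members passed under each of the 19 alternatives that gave a value per gene, including leaving out each tumoroid and each organoid pair. Of all genes tested, 12% to 24.3% fell under single alternatives, and the share that fell under all of them was not counted. The 5 others, Acsl3, Acadl, Acadm, Eci2 and Plin2, did not pass under at least 1 of them. Since the labels tie the 6 organoid libraries to 3 mice, the counts of the 2 organoid libraries with the same number were also summed. With 3 tumoroids against 3 sums, 24 members fell (against 17.2% of all tested genes) and 0 rose (against 21.6%) by edgeR. Acox2 was then at a log2 fold change of 0.58 and an adjusted p of 0.14. The falls that no longer passed were those of Acadl (log2 −0.74, edgeR adjusted p = 0.0955) and Plin2 (log2 −0.63, edgeR adjusted p = 0.0615).

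**Figure D3:**
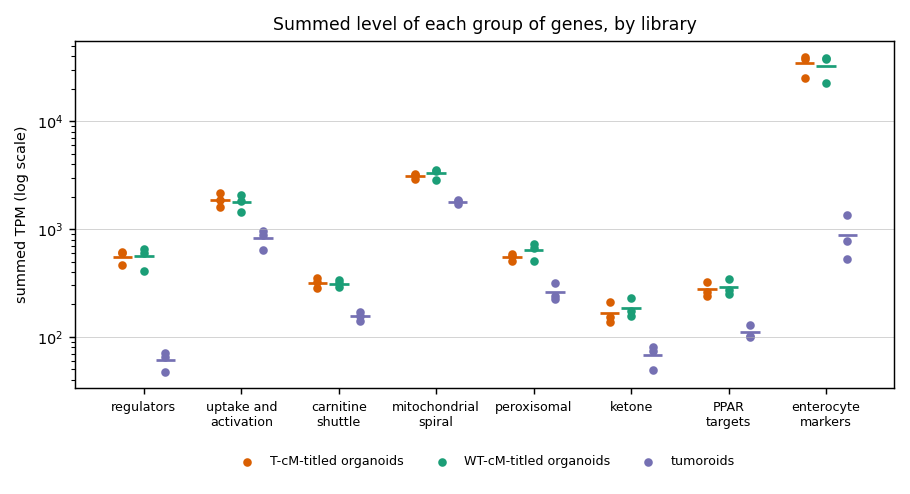
Summed TPM of the members of each role, and of the 10 enterocyte markers, in each library (points) with the mean of the 3 replicates (bar), on a log scale. Tumoroids lie below organoids in all 7 roles, with regulators at 46.9 to 70.6 TPM against 413 to 655 TPM and the mitochondrial members at 1720 to 1857 TPM against 2863 to 3530 TPM.

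Summed levels by role showed how uneven the difference was. Regulators together held 413 to 655 TPM in organoids and 46.9 to 70.6 TPM in tumoroids, most of it Creb3l3 in organoids. Members of the mitochondrial cycle held 2863 to 3530 TPM in organoids and 1720 to 1857 TPM in tumoroids. The carnitine shuttle held 283 to 353 TPM in organoids and 140 to 171 TPM in tumoroids. None of the 7 roles overlapped between organoids and tumoroids on this scale. A sum can be carried by 1 gene, and the ketone role holds Bdh1 alone. Among the PPAR targets Acot1 had a median of 155 TPM in organoids, where the role had a median of 268 TPM. Within their roles Pparg, Ppargc1a, Plin2 and Pdk4 overlapped between organoids and tumoroids.

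The comparison of the organoid groups asks how medium conditioned by tumour cells alters expression in normal epithelium. Members differed little between these groups. By edgeR with the replicate number as a block, 3 members were lower in T-cM-titled organoids (9.7%, against 5.05% of all tested genes) and 0 were higher (against 5.03%), where 10.1% of all tested genes passed in either direction. By limma voom 1 member passed, as lower (3.23%, against 1.65% of all tested genes in that direction), and by DESeq2 0 did (against 2.11%). By edgeR 0 passed with a change of more than 2-fold, as 0.673% of all tested genes did in the higher and 0.432% in the lower direction. At an unadjusted p under 0.05 there were 8 members (25.8%), against 22% of all tested genes, and all 8 were lower, against 11.1% in that direction. The median log2 fold change was −0.05, and 25 of 31 members lay within 0.2 of 0. In 0 of the 31 did all libraries of 1 group lie below all of the other, or the reverse, as happened for 5.28% and 5.12% of all tested genes. Without the block 0 members passed, and neither did any of the 16208 genes, while 904 genes had an unadjusted p under 0.05.

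Acaa1b showed the clearest difference. It was at 55.8, 59.0 and 86.3 CPM in T-cM-titled organoids 1, 2 and 3 and at 63.1, 107 and 177 CPM in the WT-cM-titled organoids of the same numbers. It was lower in all 3 pairs, slightly in pair 1 and about equally in pairs 2 and 3, while the groups overlapped (log2 −0.69, standard error 0.11, edgeR adjusted p = 5.0e-05). Its copy Acaa1a did not pass (log2 −0.07, adjusted p = 0.70). Ppargc1a was at 5.18, 35.3 and 30.5 CPM against 5.77, 49.9 and 40.0 CPM, again lower in all 3 pairs, with pair 1 far below the others in both media (log2 −0.37, standard error 0.11, edgeR adjusted p = 0.029). Angptl4 was at 22.2, 18.4 and 24.6 CPM against 22.1, 26.9 and 35.8 CPM, which is level in pair 1 and lower in pairs 2 and 3 (log2 −0.35, standard error 0.11, edgeR adjusted p = 0.045). These calls were not firm, since of 13 alternatives that gave a value per gene Acaa1b passed in 8, Ppargc1a in 5 and Angptl4 in 4. Without pair 2 none of them passed, but then only 1 of all 16208 tested genes did, and their log2 fold changes were −0.61 for Acaa1b, −0.30 for Ppargc1a and −0.27 for Angptl4.

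Pair 1 differed from the others in direction over the members. Its libraries also stood apart in cell type markers, with crypt stem cell markers summing to 244 TPM (T-cM-titled) and 374 TPM (WT-cM-titled) against 55.7 to 76.2 TPM in the other 4 organoid libraries, and enterocyte markers to 25380 and 22523 TPM against 37529 to 39977 TPM. The part of these markers in the difference between pairs was not tested. In pair 1, 5 of 31 members (16.1%) were lower in the T-cM-titled library, against 48.3% of all tested genes, while in pair 2 it was 24 (77.4%, against 49.9%) and in pair 3 it was 25 (80.6%, against 49.6%). The median log2 ratio over the members was 0.05 in pair 1, −0.13 in pair 2 and −0.18 in pair 3. Only 5 members were lower in all 3 pairs (16.1%, against 22.3% of all tested genes), namely Ppargc1a, Acsl1, Hadh, Acaa1b and Bdh1. Another 4 were higher in all 3 (12.9%, against 18.9%), namely Slc27a2, Slc27a4, Cpt1a and Eci1. When pair 1 was left out, 9 members (29%) passed as lower by edgeR, against 9.36% of all tested genes in that direction, with Eci2 (log2 −0.38), Plin2 (log2 −0.42), Pdk4 (log2 −1.25), Acadl (log2 −0.26), Hadh (log2 −0.22) and Acaa2 (log2 −0.22) joining the 3. All tested genes also passed more often without pair 1, 2872 against 1634. Plin2 over all pairs missed the threshold (log2 −0.26, adjusted p = 0.059), at 114, 120 and 138 CPM against 110, 163 and 185 CPM.

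**Figure D4:**
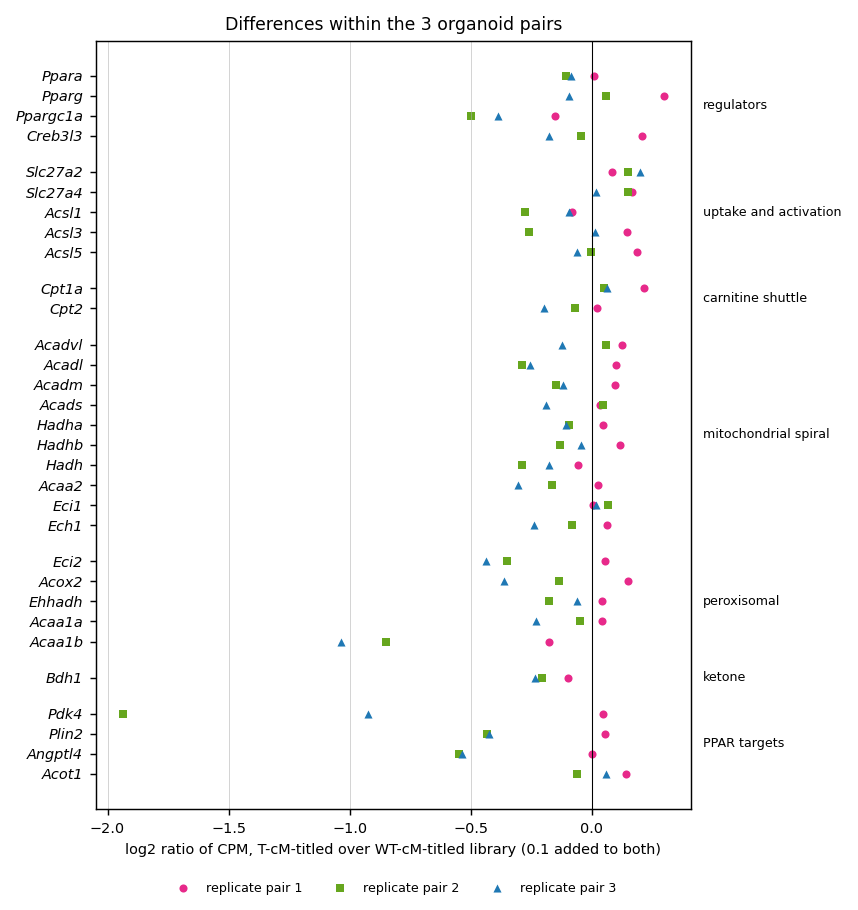
Log2 ratio of CPM, T-cM-titled over WT-cM-titled library, of each member within replicate pairs 1, 2 and 3 (0.1 CPM added to both). In pair 1 only 5 of 31 points lie below 0, in pair 2 there are 24 and in pair 3 there are 25.

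The PPAR receptors and Creb3l3 themselves did not pass between the media. Ppara was at 86.2, 108 and 87.8 CPM in T-cM-titled and at 85.6, 116 and 93.3 CPM in WT-cM-titled organoids (log2 −0.05, standard error 0.08). Creb3l3 was at 419, 584 and 645 CPM against 363, 603 and 730 CPM (log2 0.01, standard error 0.08). Cpt1a was at 273, 241 and 228 CPM against 235, 233 and 218 CPM, higher in each pair by a small amount that did not pass (log2 0.12, standard error 0.08, edgeR adjusted p = 0.37).

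Other genes of the pathway were set against the members from a list of 76 set out by role, of which 66 were tested. In tumoroids 42 of these fell (63.6%, against 20.8% of all tested genes) and 12 rose (18.2%, against 29.6%), with a median log2 fold change of −1.16. The 5 with the smallest p were Acsm3, a medium-chain acyl-CoA synthetase that rose (log2 4.19), the fatty acid binding proteins Fabp2 (−8.72) and Fabp1 (−10.52), the peroxisomal importer Abcd3 (−2.14) and the peroxisome division factor Pex11a (−1.84). Ppard, the third PPAR, was at 63.0, 53.3 and 80.4 CPM in tumoroids and at 41.6 to 53.6 CPM in organoids, and rose slightly (log2 0.47, standard error 0.14, edgeR adjusted p = 0.018). The groups overlapped. Against WT-cM-titled organoids alone Ppard did not pass (log2 0.42, edgeR adjusted p = 0.069), while against T-cM-titled organoids alone it did (log2 0.53, edgeR adjusted p = 0.026). Cd36, a fatty acid receptor, was at 0.272, 9.30 and 0 CPM against 14.4 to 25.4 CPM and did not pass (log2 −2.63, edgeR adjusted p = 0.081), with tumoroid 2 nearest the organoids.

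Between the organoid groups 10 of the 66 (15.2%, against 5.05% of all tested genes) were lower and 4 (6.06%, against 5.03%) higher in the T-cM-titled group. Fabp1 was at 3152, 3734 and 5189 CPM against 3140, 7145 and 9975 CPM, level in pair 1 (log2 −0.61, edgeR adjusted p = 0.00014). The thioesterase Acot3 was at 1.80, 1.63 and 1.18 CPM against 3.02, 5.05 and 5.58 CPM, without overlap (log2 −1.52, edgeR adjusted p = 9.9e-05). Fabp2 (log2 −0.56) and Acat1, a thiolase of ketone metabolism (log2 −0.42), were lower too, and Acadsb, a dehydrogenase of branched-chain acids, was higher (log2 0.46). Ppard (log2 −0.10, edgeR adjusted p = 0.61) and Cd36 (log2 −0.31, adjusted p = 0.15) did not pass. Of the 10 enterocyte markers 2 were lower (Lct and Anpep) and 1 higher (Alpi) in T-cM-titled organoids. Of 5 Paneth cell markers 3 were lower, without overlap (Defa17, Mmp7 and Itln1, median over the 5 of −0.26). With overlapping groups, 2 of 5 crypt stem cell markers (Ascl2 and Smoc2, median −0.61) and 1 of 5 goblet cell markers (Spink4) were lower too. Defa17 belongs to a family of near-identical defensin genes, so its counts are uncertain. The markers moved in the same comparison as the members, and their part in these differences was not tested.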

How the data were processed

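RNA was sequenced as polyA-selected stranded libraries of paired 100-base reads from 9 samples in 3 groups. The authors aligned the reads to mm10 with STAR (2.5.3a) and deposited raw counts per gene of the Gencode annotation (M13), without normalisation, and TPM, which the authors made from the counts with a correction for gene length and for depth. The counter and its strand setting are not given in the sources used here, so overlapping genes cannot be told apart with certainty. Groups were named by title, and replicate numbers were read from the titles.

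Counts were normalised with TMM and fitted with edgeR 4.0.16 (quasi-likelihood, in its form before version 4) in R 4.3.3. Genes at 1 TPM or more in at least 1 library were tested (16208), and p-values were adjusted over all of them (Benjamini-Hochberg). Organoid groups were compared over 6 libraries with a block for replicate number, as in the model of the study, which used voom. Tumoroids were compared over 9 libraries without a block, in a model with 3 groups like that of the study, but here with the mean of both organoid groups. The contrast with WT-cM-titled organoids alone was an alternative. Deviations of same-numbered organoid libraries from their group means correlated at Pearson's r = 0.55, 0.34 and 0.55 across genes. Values for libraries of different numbers were not kept, so these cannot show that the numbers pair the libraries. The pairing rests on the labels and on the model of the study. In none of the 36 pairs of libraries did counts agree within sampling noise (chi-square per degree of freedom of 9.54 or more). By that measure T-cM-titled library 2 was nearer to T-cM-titled library 3 (16.7) than to WT-cM-titled library 2 (30.1). The fit was tested on simulated data with planted changes. Alternatives were limma 3.58.1, DESeq2 1.42.0, other normalisations and filters, and replicates left out. Stretches of 100 bases shared with other genes, and gene positions, were taken from Gencode M21, and promoters from RefSeq (GRCm38.p6).

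By rule all members were named, and of the other genes of the pathway a few chosen ones, among them Ppard, Cd36 and Fabp1, and the 5 with the smallest p in each comparison. Some of the chosen ones are not reported here. Genes named among the other observations were chosen after their values were seen. The members and lists were chosen with earlier results of these data known. The labels give separate mice within a group, and p-values measure the spread between these samples only.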

Additional observations from a re-analysis of the deposited data

How the results depend on the processing

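In the comparison of tumoroids the number of members that fell ranged from 21 to 27 over the alternatives, and the number that rose was 1 (Acox2) or 0, where 12% to 24.3% of all genes tested fell and 20.9% to 47.8% rose. It was 0 with limma voom, with DESeq2, with RLE factors, against either organoid group, with organoid pairs summed and with a 2-fold threshold, and 0 to 1 when a replicate was left out. The replicate block left 26 lower and 1 higher, but turned Ppargc1a to a log2 fold change of 0.11. The median of all genes was 0.16, 0.10 with voom, 0.27 with upper-quartile factors and 0.52 or 0.64 with the deposited TPM (pseudocount 1 or 0.1), and 28 to 30 of the 31 members lay below it under each of these scalings. With the TPM 21 members fell, and on that scale Pparg stood at 0.00982 (pseudocount 1) and 0.00863 (0.1), Ech1 at 0.12 and 0.12, Eci2 at 0.075 and 0.076, and Ppargc1a at 0.49 and 0.59. Ppargc1a was at 0.13 with voom and between −0.79 and 0.19 with a replicate left out. Pdk4 was at −0.35 against WT-cM-titled organoids and between −0.60 and 0.91 with a replicate left out.

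Between the organoid groups the number of members that were lower was 1 with voom or the newer quasi-likelihood method (1.65% and 3.1% of all genes), 0 with DESeq2 (2.11%), 5 with no filter on low values (4.27% of all genes then), 0 with the deposited TPM at either pseudocount (0 of all 15797 genes), and 0 with a 2-fold threshold. It ranged from 0 to 9 when a pair was left out. With no replicate block it was 0, and Creb3l3 stood at a log2 fold change of −0.025. Under the treatment field 3 members were higher and 0 lower, and the sign of each member turned round. Creb3l3 was at −0.015 with upper-quartile factors and Hadhb at 0.0031 and 0.0032 with the TPM (pseudocount 1 and 0.1). With a pair left out, these members near 0 changed sign, with ranges of −0.0085 to 0.18 for Pparg, −0.10 to 0.083 for Creb3l3, −0.11 to 0.084 for Acsl3, −0.021 to 0.094 for Acsl5, −0.021 to 0.096 for Acadvl, −0.074 to 0.043 for Acads, −0.076 to 0.040 for Hadhb, −0.24 to 0.011 for Acox2 and −0.13 to 0.00075 for Acaa1a. The cause of these changes was not tested. With 3 replicates a group, differences of small size could be missed.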

Other observations

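Some genes of the pathway went up in tumoroids while most members went down. They were chosen after their values were seen, from the 12 of the 66 tested genes outside the members that rose. Vnn1, which encodes the pantetheinase vanin-1 and is known as a PPAR target, was at 129, 148 and 43.9 CPM in tumoroids 1, 2 and 3 and at 9.67 to 18.7 CPM in organoids (log2 2.88, edgeR adjusted p = 6.1e-05). In organoids Vnn1 was also higher in the T-cM-titled group, at 16.2, 18.7 and 15.7 CPM against 9.67, 14.9 and 13.2 CPM (log2 0.45, edgeR adjusted p = 0.018). Slc27a1, a fatty acid transporter related to the 2 members that fell, was at 32.3, 32.4 and 40.6 CPM in tumoroids and at 11.8 to 24.2 CPM in organoids (log2 1.13, edgeR adjusted p = 0.0027).

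Coat proteins of lipid droplets differed from each other. Plin4 was at 1.09, 1.30 and 14.9 CPM in tumoroids and at 0 to 0.0886 CPM in organoids, and Plin5 at 1.95, 1.19 and 8.42 CPM against 0.136 to 0.264 CPM, with tumoroid 3 highest for both (edgeR adjusted p = 0.00040 and 0.00033). Plin3 fell, from 281 to 388 CPM to 126, 136 and 152 CPM (log2 −1.29, edgeR adjusted p = 8.9e-05).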
